A study of Mus musculus with 20 samples.

Results

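Neurons and non-neurons of the newborn mouse hypothalamus were compared for DNA methylation, using 10 of the 20 libraries of a study that sampled inbred male C57BL/6 mice at 2 ages, birth (P0) and weaning age, postnatal day 21 (P21). The members are the 5 P0 libraries from nuclei carrying NeuN, a nuclear protein of neurons, and the 5 P0 libraries from nuclei without it. No P21 library entered the test at birth, and the 10 P21 libraries, of the same strain and sex, serve below only as a second age. Each sample that was sorted pooled 2 hypothalami of the same age, the labels describe the 5 libraries of a group as biological replicates, and no group carried a transgene or received a treatment. The fraction without NeuN is a mixture of all other nuclei, and whether it holds neurons with too little NeuN to be sorted was not tested. How pure each fraction was could not be checked against marker genes, because the intervals carry no gene names and a gene annotation of their build (mm9) was not used here. They are therefore given by position only, without a gene, exon or promoter.

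Methylation of cytosine in CpG dinucleotides is copied when cells divide, is established anew by DNA methyltransferases and can be lost passively or through oxidation by TET enzymes. Cell types of one tissue carry different patterns, most often at regulatory DNA, and neurons and glia of the brain differ from one another while both arise from neural progenitors. In the hypothalamus many neurons are born before birth, whereas much of the glial population matures after it.

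The assay, methylation-specific amplification with sequencing (MSA-seq), cuts unmethylated SmaI/XmaI sites with SmaI and then the methylated sites with XmaI, and adaptors are joined to the XmaI ends only. An interval between neighbouring sites is amplified when both of its ends are methylated. Its level is given as CPM, its read count scaled to the size of the library. At the same interval, a higher CPM is read as more DNA methylated at both ends, relative to the rest of the library. It does not give the fraction, and it depends on how libraries are scaled. Between intervals the level also moved with length, so it does not rank them by methylation. Of 50782 intervals in the table, 60 to 3000 bp long, 7239 had no read in any P0 library. Enough reads to be tested were present at 23378 intervals, which held 99.2% of the P0 reads. The P0 libraries held 5663740 to 8114098 reads. Totals averaged 6737860 ± 601497 in neurons and 6830890 ± 882471 in non-neurons (SD, n = 5 each; two-sided exact permutation p = 0.857).

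The 10 libraries parted by cell type, and within each cell type replicates 4 and 5 stood apart from replicates 1 to 3. On the first principal component of the P0 libraries, with 29.2% of the variance, neurons scored 11.9 to 41.6 and non-neurons -39.6 to -20.7. Neurons 4 and 5 scored 12.2 and 11.9, below the 33.8 to 41.6 of the other 3, and non-neurons 4 and 5 scored -36.6 and -39.6, below the other 3 as well. The second component, with 19.4% of the variance, placed replicates 4 and 5 of both cell types below 0 and replicates 1 to 3 above it. The labels name no batch behind this. Results are therefore given below for all libraries, for each of these sets and for a fit with the set as a term. What lies behind the split was not tested. Of 7 measures per library (total reads, intervals with a read, reads in the 1000 most covered intervals, reads in short and in long intervals, reads on X, mean length), none passed the two-sided exact permutation test between cell types, and the smallest raw p was 0.0635 (adjusted p = 0.222). This design cannot give a p below 0.00794.

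At birth the methylation signal differed between neurons and non-neurons at 2760 intervals (11.8% of those tested, edgeR's quasi-likelihood test with Benjamini-Hochberg adjusted p under 0.05). The signal was higher in neurons at 1836 of them (7.85%) and lower at 924 (3.95%). Most differences were small. Calls higher in neurons had a median log2 fold change of 0.57, or 1.48-fold, with a median standard error of 0.10, and 945 of them (51.5%) were under 1.5-fold. Calls lower in neurons had a median of -0.67, or 1.59-fold, with a median standard error of 0.14, and 395 (42.7%) were under 1.5-fold. Over all tested intervals the median was -0.01 and the middle 50% ran from -0.18 to 0.16. A further 519 higher and 283 lower calls lay between 1.5 and 2-fold. Differences of 2-fold or more numbered 372 higher (1.59% of tested intervals) and 246 lower (1.05%). At 8-fold or more there were 10 higher and 5 lower calls.

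The balance between the directions depended on how libraries were scaled. Under TMM scaling, used throughout, 66.5% of calls were higher in neurons. The share was 56.6% when only library totals were used, 54.8% when a trend with interval length was removed from each library, and 43.8% under upper-quartile scaling, where more calls were lower than higher. Among calls of 2-fold or more it was 60.2% under TMM, 49.8% under upper-quartile scaling and 51.1% without a filter on low counts. In the 24 other fits, 0 of the 2760 calls were made in the other direction. Those fits reuse the same libraries, so this was likely from the start. Fewer of the 2760 stayed calls in some fits: 2283 under upper-quartile scaling, 2148 without neuron 1 and 1638 in replicates 4 and 5 alone.

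The groups of 5 did not overlap at 1410 of the 1836 higher calls (76.8%) and at 658 of the 924 lower calls (71.2%), against 10.3% of all tested intervals. The calls were made from these same values, so this excess follows in part from the choice. Fitted alone, replicates 1 to 3 gave 1286 higher and 700 lower calls (5.5% and 2.99% of tested intervals), and replicates 4 and 5 gave 1291 and 600 (5.52% and 2.57%). With the set as a term in 1 fit of all 10 libraries there were 3258 calls, 2076 higher and 1182 lower, among them all 2760. The 2 sets share no library. They had 912 higher calls in common, 70.9% of the first list and 70.6% of the second, and 349 lower calls, 49.9% and 58.2%. Not one interval was called in opposite directions. Of the intervals called higher in replicates 1 to 3, 98.2% had the same sign in replicates 4 and 5, with a median log2 fold change of 0.68 in the first set and 0.62 in the second. Of those called lower, 91.4% had the same sign, and the median went from -0.91 to -0.55. Both lists were chosen by their values in replicates 1 to 3, so smaller medians in the other set are partly built in.

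**Figure D1:**
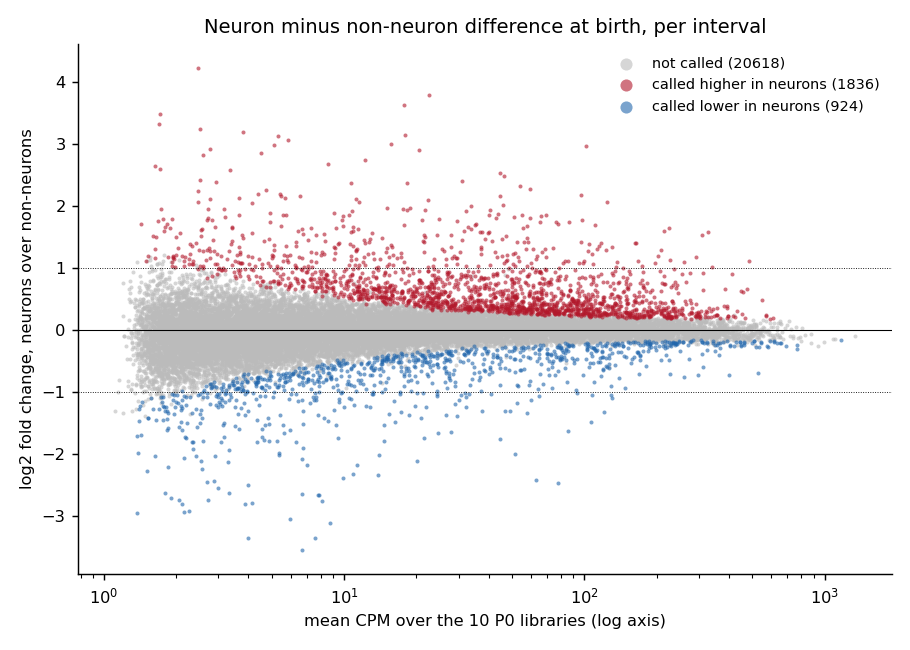
Each point is 1 of the 23378 tested intervals, with its mean CPM over the 10 P0 libraries on a log axis and its log2 fold change, neurons over non-neurons, on the vertical axis; dotted lines mark 2-fold. Under the TMM scaling shown, the 1836 calls higher in neurons (red) crowd at higher levels (under upper-quartile scaling most calls at high levels were lower), whereas the 924 calls lower in neurons (blue) reach down to weakly covered intervals.

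Intervals with more reads were called more often. Tested intervals were put in 4 classes of equal size by mean level, with median levels of 2.40, 6.15, 19.4 and 98.2 CPM, and 4.96%, 7.15%, 14.1% and 21% of them were called. The share called higher went from 2.17% to 15.6% over these classes, and the share called lower from 2.79% to 5.41%. Large differences did not follow this order. Calls of 2-fold or more and lower in neurons made up 2.19% of the least covered class and 0.274% of the most covered one, while those higher in neurons made up 1.85% and 1.33%. Calls in the most covered class were higher in neurons in 74.2% of cases, a share that fell to 58.5% with library totals, 51.4% with the length trend removed and 42.3% under upper-quartile scaling, so that its direction turned with the scaling.

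Intervals of middle length were called most often. Of those over 400 and up to 800 bp, 21.2% were called, and of those up to 1600 bp, 17.6%. The shares were 4.07% above 1600 bp, 8.39% over 200 and up to 400 bp and 5.6% at 60 to 200 bp. Level moved with length: the median was 65.4 CPM in the class up to 800 bp and 3.36 CPM at 60 to 200 bp. Under TMM the shortest class alone had more lower than higher calls, 4.0% against 1.6%, whereas under upper-quartile scaling all 5 classes did. In the shortest class 28.6% of calls were higher under TMM, 17.3% under upper-quartile scaling and 56.0% with the length trend removed, so that its direction turned as well. The part of length and level in these shares was not tested.

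Every autosome held calls in both directions, from 9.88% of tested intervals on chromosome 1 to 14.5% on chromosome 14. On the X chromosome, of which male cells carry a single copy, 27 of 415 tested intervals were called (6.51%), 23 of them higher and 4 lower, against 11.9% on the autosomes. Levels on X were lower, with a median of 5.82 CPM against 10.6 on the autosomes. Autosomal intervals weighted to the level mix of X were called in 10.1% of cases.

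The higher calls described first are the 12 largest among intervals whose groups did not overlap and whose mean log2 CPM over the 10 libraries was above the median of tested intervals (3.39). They lay on 9 chromosomes, and their log2 fold changes ran from 2.15 to 3.78. They were 283 to 1345 bp long, and each was called in replicates 1 to 3 and in replicates 4 and 5. None lost its call in any of the 24 other fits, and the same was true of the 12 largest lower calls. Both lists were chosen for large, separated values in these same libraries, so that they kept their calls is a description.

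The largest of them was chr7:26031602-26032252, an interval of 650 bp. Neurons 1 to 5 had 42.6, 51.6, 43.9, 38.2 and 34.2 CPM, and non-neurons 1 to 5 had 4.47, 2.57, 2.93, 1.73 and 3.61 CPM. The lowest neuron library was thus far above the highest non-neuron library. The log2 fold change was 3.78 ± 0.17 (SE; edgeR adjusted p = 5.96e-16), a 13.8-fold difference. At P21, scaled among the P21 libraries, the interval stood at 46.4 ± 3.63 CPM in neurons and 1.77 ± 0.682 in non-neurons (SD, n = 5 each).

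The most heavily covered of the 12 was chr3:104796839-104797566. Neurons had 170.3, 196, 199, 157 and 177 CPM, and non-neurons 27.8, 24.9, 22.02, 21.6 and 18.9 CPM. The means were 179.9 ± 17.8 and 23.1 ± 3.41 (SD, n = 5 each) and the groups lay far apart. The log2 fold change was 2.96 ± 0.09 (SE; edgeR adjusted p = 1.51e-19). The other 2 of the 12 on this chromosome lay nearby. At chr3:105207197-105208173 the neurons had 78.6, 74.6, 78.6, 75.7 and 71.5 CPM and the non-neurons 12.97, 14.1, 12.6, 16.0 and 9.97 CPM (log2 fold change 2.52 ± 0.10). At chr3:105697325-105698397 the neurons had 48.5, 55.5, 58.8, 47.9 and 49.96 CPM and the non-neurons 8.07, 11.03, 10.4, 8.49 and 11.7 CPM (2.39 ± 0.12). In the 901558 bp from the first to the last of the 3, 8 intervals were tested, and these 3 were the only ones called. The distances are far above the 10000 bp used below to join calls into clusters, so the 3 count as separate.

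On the X chromosome, chrX:96197533-96198718 had 41.8, 36.3, 35.7, 31.5 and 35.2 CPM in neurons and 4.90, 6.20, 2.55, 4.60 and 6.36 CPM in non-neurons (log2 fold change 2.89 ± 0.16, edgeR adjusted p = 4.01e-14). The groups were clearly apart, and the difference was 7.42-fold. At chr13:45003353-45003693 the neurons had 82.9, 76.6, 80.4, 76.8 and 75.4 CPM and the non-neurons 17.0, 10.7, 15.1, 15.7 and 11.3 CPM (2.48 ± 0.11). At chr10:41970966-41971307 they had 31.3, 25.1, 34.6, 31.0 and 31.5 against 7.35, 5.14, 5.73, 5.47 and 6.02 CPM (2.36 ± 0.14). In both of these the spread among the neuron libraries was small beside the gap to the non-neurons. Of the remaining 5, 1 is described with its cluster below, and the other 4 had mean levels of 73.0 to 159 CPM in neurons and 16.4 to 35.2 CPM in non-neurons, at chr9:44303234-44304150, chr6:5293860-5294429, chr9:63846133-63847171 and chr2:26976016-26977361.

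**Figure D2:**
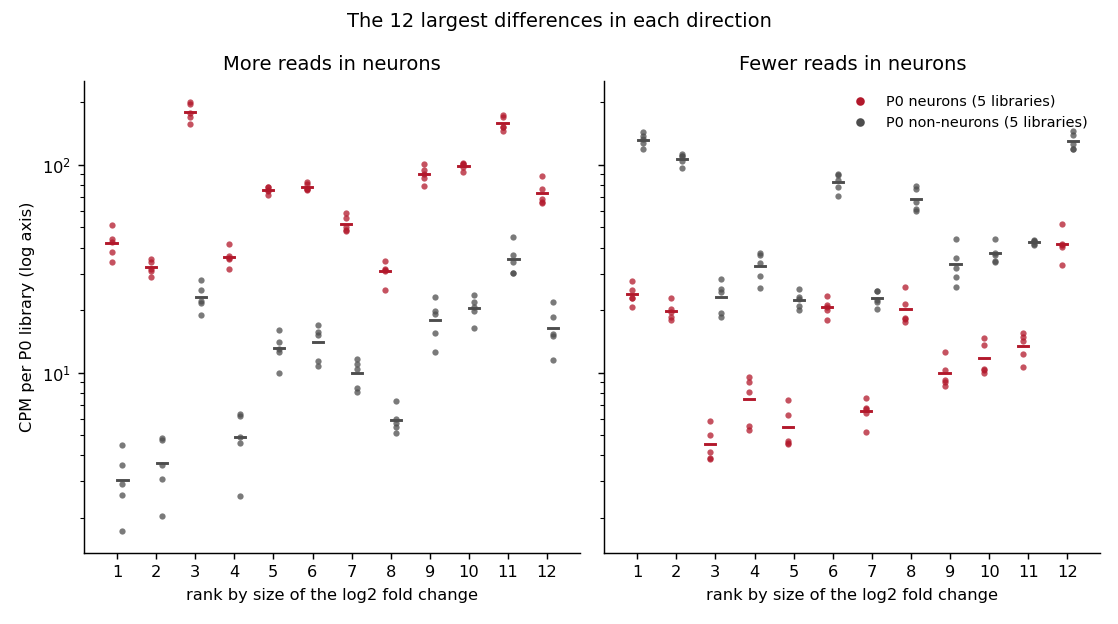
The CPM in each P0 library on a log axis is shown for the 12 largest higher calls (left) and the 12 largest lower calls (right), ranked by the size of the log2 fold change; points are libraries (red, neurons; grey, non-neurons) and bars are means over 5 libraries. The groups do not overlap at any of the 24 intervals, as the rule for choosing them required.

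The 12 largest lower calls, chosen in the same way, lay on 10 chromosomes, with log2 fold changes from -2.47 to -1.64. The largest was chr4:139824190-139825253, with 20.7, 27.6, 25.03, 22.9 and 22.8 CPM in neurons and 127, 138, 144, 132 and 119 CPM in non-neurons. Every non-neuron library was above every neuron library by a wide margin, and the log2 fold change was -2.47 ± 0.09 (SE; edgeR adjusted p = 8.95e-19). The interval that touches it, chr4:139825253-139825939, was also among the 12. It had 40.4, 41.7, 51.8, 33.1 and 41.1 CPM in neurons and 119, 126, 146, 139 and 119 CPM in non-neurons (-1.64 ± 0.09). The 2 intervals share a cutting site, so their signals are not independent.

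At chr17:85658518-85659428 the neurons had 19.6, 17.9, 18.6, 20.3 and 22.9 CPM and the non-neurons 104, 110.2, 111, 96.1 and 112 CPM. Within each cell type the libraries lay close together, and the log2 fold change was -2.42 ± 0.09 (edgeR adjusted p = 2.03e-18). At chr14:22418982-22419728 the neurons had 4.13, 5.84, 5.01, 3.87 and 3.84 CPM and the non-neurons 28.1, 25.2, 24.6, 19.3 and 18.6 CPM (-2.34 ± 0.17, edgeR adjusted p = 4.41e-12). Here both cell types had their lowest values in replicates 4 and 5. At chr5:132193512-132193807 neurons averaged 7.50 ± 1.97 CPM and non-neurons 32.7 ± 5.16 (SD, n = 5 each), and at chr1:24254791-24255722 they averaged 20.7 ± 1.98 and 82.7 ± 8.20. At chr11:80296307-80297734 the neurons had 10.7, 14.3, 12.3, 15.5 and 14.8 CPM against 41.4, 43.5, 41.6, 42.9 and 43.1 CPM in non-neurons, which were nearly constant (-1.65 ± 0.11).

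Other steep differences lay below the median mean log2 CPM, outside the rule on level, and those named in this paragraph were chosen after their values were seen. The largest difference of all was at chr7:86642731-86643606, with 6.20, 3.53, 6.62, 3.55 and 3.56 CPM in neurons and 0.144, 0.151, 0.382, 0.288 and 0.172 CPM in non-neurons. It was 18.6-fold higher in neurons (log2 fold change 4.22 ± 0.42), with 8 reads in all 5 non-neuron libraries together. At chr8:93393071-93393598 the neurons had 35.6, 30.6, 34.6, 30.3 and 33.6 CPM and the non-neurons 5.04, 2.42, 1.65, 2.16 and 2.06 CPM, a 12.3-fold difference at a mean log2 CPM of 3.26, just under that median. Among the lower calls, at chr14:25436787-25437909 the neurons had 1.43, 0.679, 0.323, 2.10 and 0.712 CPM and the non-neurons 12.4, 11.6, 12.98, 9.78 and 14.96 CPM. This was the largest lower call, an 11.7-fold difference (log2 fold change -3.55 ± 0.28, edgeR adjusted p = 5.94e-11). At chr7:106460291-106460689 neurons averaged 0.689 ± 0.246 CPM and non-neurons 7.30 ± 0.397 (SD, n = 5 each). In the other direction, chr12:85103756-85104450 averaged 9.55 ± 1.40 CPM in neurons and 1.05 ± 0.604 in non-neurons, and chr3:34552640-34552955 averaged 3.09 ± 0.704 and 0.292 ± 0.0906. Over the 10 higher calls of 8-fold or more, the non-neuron mean was 0.227 to 3.66 CPM, and over the 5 lower ones the neuron mean was 0.689 to 1.78 CPM. The filter on low counts, at about 1.498 CPM, could be met by the libraries of 1 group alone. Apart from chr8:93393071-93393598, each interval named in this paragraph had a low-group mean below that level. Such intervals entered the test through the group where they are high, and their folds rest on few reads in the other. 

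The most covered calls differed little. The 3 with the highest mean level in each direction differed only 1.13 to 1.23-fold. At chr2:92812929-92813782, lower in neurons, neurons averaged 1098 ± 77.7 CPM and non-neurons 1239.8 ± 47.9 (SD, n = 5 each; log2 fold change -0.17, edgeR adjusted p = 0.0397), and the groups overlapped. At chr5:143549447-143550334 the means were 685 ± 86.5 and 846 ± 75.5 CPM (-0.30, edgeR adjusted p = 0.00638), and at chr14:26470777-26471504 they were 702 ± 57.7 and 834 ± 25.05. Higher in neurons were chr6:47597795-47598345, with 649 ± 39.0 against 567.8 ± 21.7 CPM, chr4:148335412-148336279, with 617 ± 52.4 against 529 ± 46.8, and chr10:60805768-60806284, with 626 ± 36.9 against 555 ± 21.5. Several of these calls were fragile. In the 24 other fits chr10:60805768-60806284 lost its call 18 times, chr6:47597795-47598345 11 times, chr2:92812929-92813782 10 times and chr4:148335412-148336279 9 times, each time with the direction kept. Single libraries were enough. The call at chr10:60805768-60806284 ended without any 1 library other than neuron 4 and non-neuron 3 (edgeR adjusted p = 0.0554 to 0.238), and the one at chr6:47597795-47598345 without any of neurons 1 to 4 or non-neuron 1 (0.0506 to 0.189). At chr2:92812929-92813782 this held for neurons 1, 4 and 5 and non-neurons 2, 3 and 4 (0.0622 to 0.117), and at chr4:148335412-148336279 for neurons 2 and 3 and non-neurons 1, 4 and 5 (0.0606 to 0.19).

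Calls lay near calls of the same direction. When calls in 1 direction within 10000 bp of each other were joined, 706 of the 2760 calls (25.6%) fell into 317 clusters, 212 with higher signal in neurons (480 calls) and 105 with lower signal (226 calls). Most clusters were pairs: 264 had 2 calls, 37 had 3, 13 had 4 and 3 had 5. The other 2054 calls were alone. Joining only touching intervals put 602 calls into clusters, and a distance of 50000 bp put 977. Clustered calls had a median size of 0.73 log2 units against 0.52 for lone ones among the higher calls, and 0.77 against 0.63 among the lower calls. The nearest other call of the same direction lay a median of 124661 bp from a higher call, against 271006 bp from an interval not called. For lower calls the distances were 256258 and 527458 bp. Such a call lay within 10000 bp of 26.3% of higher calls and 6.84% of intervals not called, and of 24.5% of lower calls against 4.03%. Intervals not called were not matched to calls on level.

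The nearness was strongest between intervals that touch. Neighbours were counted from each call in turn, so a pair with both intervals called in the same direction is counted from both sides. Of 1073 neighbours so counted that touch a higher call, 458 (42.7%) were called higher, against 8.55% of all touching neighbours, and 11 (1.03%) were called lower. Of 543 that touch a lower call, 184 (33.9%) were called lower, against 4.33%, and 11 (2.03%) were called higher. Over all 6273 touching pairs, the log2 fold changes of the pair had a Pearson r of 0.55 and a Spearman rho of 0.43. Such a pair shares a cutting site and the same libraries, so this is a description across intervals, which are not independent replicates. Having a tested neighbour that touches was about as common among calls (48.4% of higher and 48.3% of lower) as among all tested intervals (45.3%).

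Between neighbours across a gap the correlation of the fold changes was low. For pairs 1 to 1000 bp apart r was 0.05 (276 pairs), and for pairs over 1000 and up to 10000 bp apart it was 0.09 (2315 pairs). At 1 to 1000 bp, 6 of 25 neighbours of higher calls (24.0%) were called higher, against 4.53% of all, and 6 of 33 neighbours of lower calls (18.2%) were called lower, against 5.98%. Pairs of calls are again counted from both sides, so each 6 stands for fewer pairs. Over 1000 and up to 10000 bp the share of neighbours called in the same direction was 11.3% for higher calls against 7.24% of all, and 8.05% for lower calls against 3.76%. Beyond 100000 bp the shares were 7.41% against 7.34%, and 4.26% against 3.19%. Chains of touching intervals allow a comparison without a shared site. The next interval but one in a chain, at a median of 2460 bp between midpoints, had r = 0.26 (rho = 0.15) over 1967 pairs, and the one after that r = 0.19 (rho = 0.081) over 741 pairs. In the first case 24.5% of such neighbours of higher calls were called higher, against 8.52% of all, and 14.5% of those of lower calls were called lower, against 4.19%. Among pairs with both intervals above the median level, r was 0.64 for touching intervals, 0.25 for the next but one and 0.06 for the one after that. At that level, 49.6% of touching neighbours of higher calls were called higher, against 11.4% of all, and 35.9% against 4.98% for lower calls. At 1 to 10000 bp apart the shares were 18.1% against 12.1%, and 13.3% against 4.67%.

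**Figure D3:**
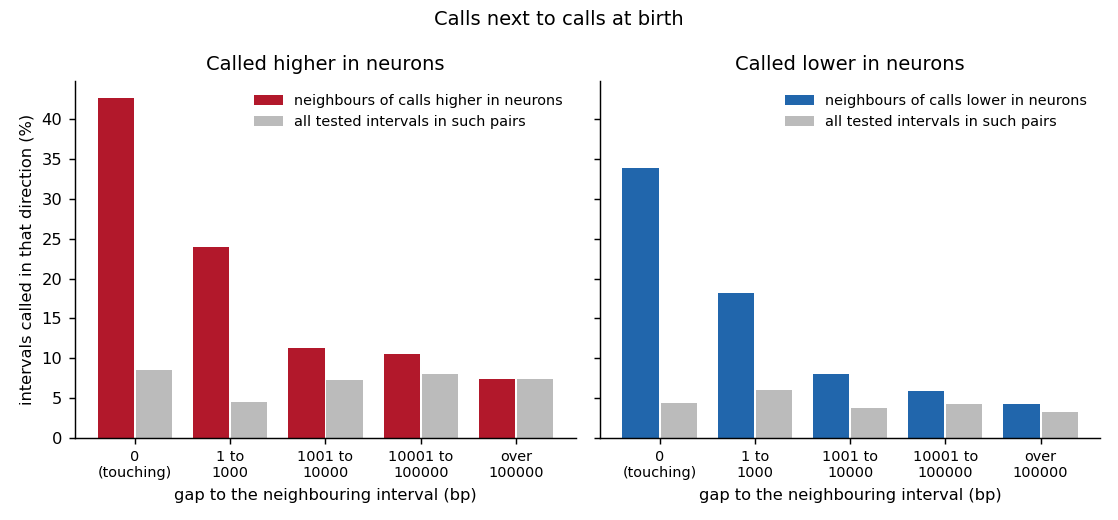
Bars give the percent of neighbouring tested intervals called higher (left) or lower (right) in neurons, by the gap to the neighbour in bp, for neighbours of calls of that direction (coloured) and for all tested neighbours (grey). Touching neighbours of calls were called in the same direction in 42.7% and 33.9% of cases, and the coloured and grey bars draw together as the gap grows.

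Of the 16 clusters with 4 or 5 calls, 14 had higher and 2 had lower signal in neurons, beside 212 higher among all 317 clusters. These directions are those under TMM scaling, and the balance of calls turned with the scaling. Directions of clusters are not given here for other scalings. The 8 described here hold 35 intervals and are the 3 with 5 calls and, of the 13 with 4, the 5 with the largest summed size of the log2 fold changes. They were chosen by the calls, so their values are a description. Of the 35 calls, 32 were made in replicates 1 to 3 alone and 27 in replicates 4 and 5 alone, and all 35 had the same sign in both sets. The strongest was chr7:26030206-26033920, where 4 touching intervals in 3714 bp were all called, with a summed level of 101 CPM in neurons and 20.7 in non-neurons. Its members differed widely in level. The first, chr7:26030206-26031602, had 60.1, 61.7, 49.3, 50.02 and 46.3 CPM in neurons and 18.0, 15.1, 16.9, 18.1 and 14.8 CPM in non-neurons. The second is the 13.8-fold interval described above, and the third, chr7:26032252-26032360, is only 108 bp long and had 3.66, 2.99, 3.71, 2.26 and 3.13 CPM in neurons against 0, 0.604, 0, 0.432 and 0.344 in non-neurons. That is 9 reads in all 5 non-neuron libraries together, so the interval met the filter on low counts through its neuron libraries. All 4 members had log2 fold changes between 1.68 and 3.78.

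At chr11:97301515-97304149, 4 touching intervals in 2634 bp had a summed level of 69.3 CPM in neurons and 12.5 in non-neurons, with log2 fold changes of 1.45 to 3.13. The middle interval chr11:97302663-97302946 had the highest level in neurons, with 35.3, 31.4, 31.0, 34.0 and 28.9 CPM in neurons and 3.60, 4.84, 2.04, 4.75 and 3.09 CPM in non-neurons. At the other end, chr11:97302946-97304149 had 15.9, 19.2, 18.4, 16.6 and 18.1 CPM in neurons and 9.08, 6.80, 5.22, 4.89 and 6.36 CPM in non-neurons. The log2 fold change thus went from 3.13 to 1.45 between 2 intervals that share a site.

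A second run on that chromosome was even along its length. At chr11:113667215-113670640, 4 touching intervals in 3425 bp had log2 fold changes of 1.74, 1.92, 1.85 and 1.48, and summed levels of 215 and 62.4 CPM. Its first interval, chr11:113667215-113667703, had 107, 113, 124, 117 and 127 CPM in neurons and 35.4, 33.2, 26.9, 40.7 and 40.6 CPM in non-neurons. Its second, chr11:113667703-113667820, is 117 bp long and averaged 28.9 ± 3.81 and 7.65 ± 1.33 CPM (SD, n = 5 each).

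At chr5:123093261-123099404 the difference faded along the run of 4 touching intervals, with log2 fold changes of 1.85, 1.40, 0.83 and 0.88. The first, chr5:123093261-123094481, had 108, 118, 124, 105 and 89.8 CPM in neurons and 28.7, 34.2, 30.8, 26.6 and 30.4 CPM in non-neurons. At the third, chr5:123096129-123097541, the groups overlapped, with 11.5 to 21.9 CPM in neurons and 8.78 to 11.7 in non-neurons. In chr17:27175529-27188548, 4 calls formed 2 touching pairs 8713 bp apart. The strongest, chr17:27185591-27186196, had 231, 253, 246, 219 and 231 CPM in neurons and 95.2, 91.0, 83.0, 90.2 and 89.4 CPM in non-neurons (1.40 ± 0.06, edgeR adjusted p = 4.38e-16).

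The higher clusters with 5 calls held weaker differences. At chr2:168370027-168383583 all 5 tested intervals were called, in runs of 2 and 3 that lay 6349 bp apart, with log2 fold changes of 0.48 to 0.76 and summed levels of 299.9 and 186 CPM. At chr11:117093013-117099850, 5 of 7 tested intervals were called, with log2 fold changes of 0.42 to 1.02. The cell types overlapped at 3 of those 5. The call at chr11:117093675-117094055 was lost without neuron 2 (edgeR adjusted p = 0.0582), and at chr11:117094055-117094556 the call was lost when neuron 1, non-neuron 2 or non-neuron 5 was left out (edgeR adjusted p = 0.0573 to 0.0801).

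The 1 cluster of 5 calls with lower signal in neurons, chr8:123073824-123081806, had 5 calls among 7 tested intervals, with summed levels of 99.8 CPM in neurons and 199.9 in non-neurons. Its first interval, chr8:123073824-123074613, had 2.39, 1.49, 0.969, 0.323 and 1.42 CPM in neurons and 14.4, 11.6, 16.2, 12.9 and 13.8 CPM in non-neurons (log2 fold change -3.36 ± 0.26). The neighbour that touches it, chr8:123074613-123074973, had 3.34, 5.16, 4.20, 4.52 and 7.12 against 11.8, 10.1, 11.2, 11.1 and 7.74 CPM (-1.09 ± 0.20). The largest difference therefore stood at the edge of the cluster, at an interval that met the filter on low counts through the non-neurons. Its last interval, chr8:123079589-123081806, had overlapping groups and lost its call when any of neurons 1, 2 and 3 or non-neurons 2, 4 and 5 was left out (edgeR adjusted p = 0.0518 to 0.108).

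**Figure D4:**
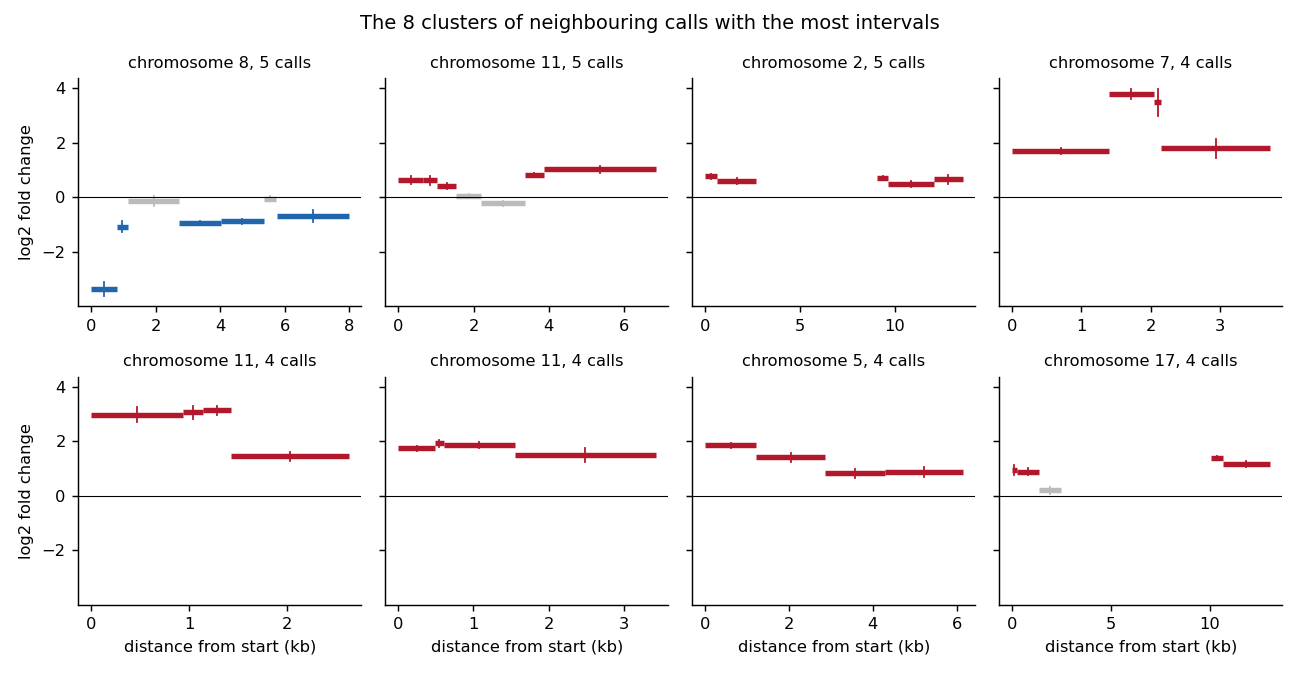
Each panel shows 1 of the 8 clusters described, with the distance from its start in kb against the log2 fold change; thick lines are tested intervals (red, called higher; blue, called lower; grey, not called). The differences are even along the run on chromosome 11 with 1.48 to 1.92, fade along chromosome 5 and are largest at the edge of the cluster on chromosome 8.

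Differences at birth were then followed to P21, in a fit of the 10 P21 libraries alone, which shares no library with the fit at birth. Intervals higher in neurons at birth mostly stayed so: 1536 of 1836 (83.7%) were called higher at P21, against 21% of all these intervals. Only 13 (0.708%) were called lower, against 15.2%. At birth, higher calls had median levels of 50.6 CPM in neurons and 31.2 in non-neurons, and lower calls 14.1 and 23.2. Over all tested intervals these were 10.5 and 10.4 CPM, so the shares of all intervals are not matched on level. The P21 fit used TMM scaling only, so how these shares move with scaling was not tested. The larger the difference at birth, the more often it was called again, at 75.4% under 1.5-fold, 91.5% at 1.5 to 2-fold, 93.2% at 2 to 4-fold and 95.9% at 4-fold or more. The median log2 fold change of the 1836 was 0.57 at birth and 1.03 at P21. Clustered calls were called again in 89.2% of cases and lone ones in 81.7%.

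Of the 924 intervals lower in neurons at birth, 488 (52.8%) were called lower again at P21, against 15.2% of all these intervals. Another 128 (13.9%) were called higher, a share below the 21% of all these intervals. Size at birth made no steady difference, with 55.7%, 47.7%, 52.7% and 60% called again in the same 4 size classes. The share called higher at P21 was 9.11%, 17.3%, 16.4% and 22.2%, the last being 10 of 45 intervals and near that 21%. The median went from -0.67 to -0.37. In a fit of all 20 libraries, a test of the difference between the ages (the interaction of cell type and age) was passed by 346 of these 924 (37.4%), with 269 moving up and 77 down. It was passed by 816 of the 1836 higher calls (44.4%), 755 up and 61 down, and by 14.9% of all these intervals. The P0 libraries that chose these intervals also enter the interaction test, so its counts among them, and those at the named intervals below, are a description.

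Single intervals show both courses. CPM was scaled within each age, so levels compare the cell types at the same age. A level at birth and a level at P21 are not on a common scale. All 12 of the largest higher calls were called higher at P21. At chr10:41970966-41971307, neurons averaged 82.8 ± 9.21 CPM at P21 and non-neurons 3.22 ± 0.970 (SD, n = 5 each), and the log2 difference was larger than at birth by 2.29 ± 0.22 (SE). At chr3:105697325-105698397 it was larger by 1.73 ± 0.21, with 68.6 ± 2.87 against 3.86 ± 1.57 CPM. On the same chromosome, at chr3:105207197-105208173, it was smaller than at birth, by -0.46 ± 0.15, with 91.9 ± 8.79 against 21.7 ± 3.16 CPM.

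Of the 12 largest lower calls, 9 were called lower at P21, 1 was called higher, and 10 passed the interaction test. At chr14:22418982-22419728 the difference at birth was followed by 46.5 ± 2.75 CPM in neurons and 46.0 ± 6.57 in non-neurons at P21 (SD, n = 5 each; log2 fold change 0.02). At chr15:31332059-31333483 the neurons had 6.68, 6.38, 5.17, 6.78 and 7.54 CPM at birth and the non-neurons 20.3, 24.6, 22.3, 21.9 and 24.8 CPM, and at P21 they averaged 41.3 ± 1.25 and 38.2 ± 7.38. At chr8:97075370-97076482, with 8.59, 10.3, 9.20, 9.04 and 12.5 against 32.0, 35.5, 44.0, 28.9 and 25.8 CPM at birth, neurons were above non-neurons at P21, at 47.8 ± 6.15 and 37.98 ± 7.13 CPM (log2 fold change 0.33, edgeR adjusted p = 0.035). The opposite course was taken by chr11:80296307-80297734, where P21 neurons averaged 2.38 ± 0.471 CPM and non-neurons 38.6 ± 8.65, a log2 difference further from 0 than at birth by -2.37 ± 0.22. At chr4:139824190-139825253 the difference kept its direction but shrank, with 72.4 ± 5.06 against 123 ± 14.7 CPM.

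**Figure D5:**
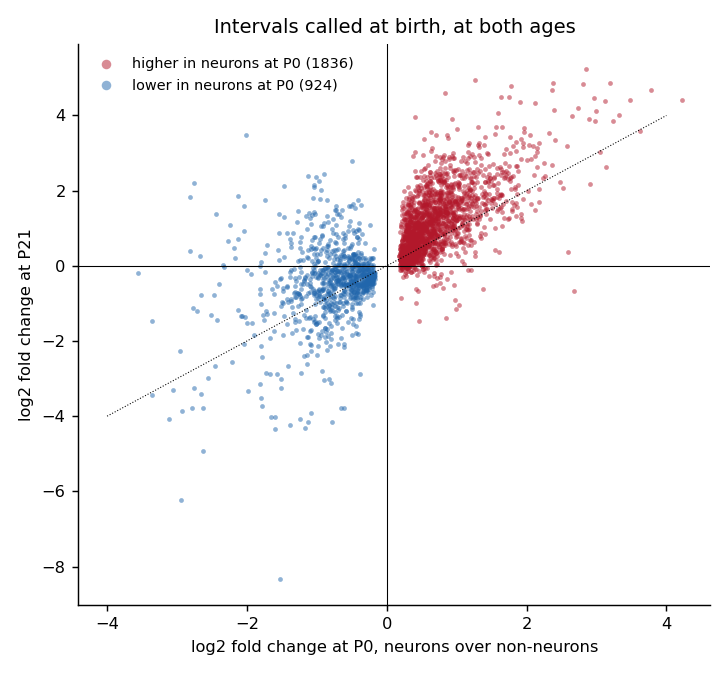
Each point is an interval called at birth, with its log2 fold change (neurons over non-neurons) at P0 on the horizontal and at P21 on the vertical axis; the dotted line marks equal values. Most of the 1836 higher calls (red) lie above 0 at P21, many above the dotted line, whereas the 924 lower calls (blue) spread to both sides of 0.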

How the data were processed

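Per the submitters' processing notes, reads were handled with FastQC 0.10.1, cutadapt and Bowtie 0.12.9 on the mm9 build. The deposited table holds raw counts of reads per interval, as judged by their being integers whose sums differ between libraries. The counting rule: not given in the sources used here. Coordinates are those of the table. Columns were matched to libraries by age, cell type letter and number, and 0 columns belonged to no sample. Reads carry no molecular identifiers, and standard errors reflect the spread between libraries.

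Weakly covered intervals were dropped by filterByExpr (minimum count 10, total 15, about 1.498 CPM), a level that the libraries of 1 group could meet alone. Counts were scaled by TMM and tested with glmQLFit (robust) and glmQLFTest (edgeR 4.0.16) on the 10 P0 libraries in R 4.3.3. The biological coefficient of variation was 13.1%. A call is an adjusted p under 0.05 over all 23378 tested intervals. Standard errors are the log2 fold change over the square root of F. P21 was fitted alone, and the interaction on all 20 libraries. CPM values were scaled within each age, over the intervals tested at birth. Library measures were compared by two-sided exact permutation (scipy 1.17.1). The functions were tested on simulated data. Replicates of a group correlated at r = 0.968 to 0.981 and no 2 agreed within sampling noise (chi-square per degree of freedom 2.05 to 5.21).

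Intervals are named by a rule: the 12 largest per direction among calls without overlap and above the median mean log2 CPM, the members of the 8 clusters with the most calls (ties by summed size of the log2 fold change), and the 3 most covered calls per direction, 63 in all. The comparison, lists and rule were chosen with earlier results of these data known. Alternatives were RLE, total and upper-quartile scaling, no filter, a filter of 20 reads in 5 libraries, DESeq2 1.42.0, limma-voom (limma 3.58.1), all 20 libraries, a replicate block, each library left out, replicates 1 to 3 or 4 and 5 alone, their set as a term, a length trend removed (lowess, span 0.2) and thinning. The planned gene lists and marker genes are not analysed here, since an mm9 annotation was not used. Plots used matplotlib 3.10.9.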

Additional observations from a re-analysis of the deposited data

Results flagged for a closer look

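Among 126 groups of 5 values (63 named intervals in 2 cell types at birth), 3 held a library far from the other 4 by Dixon's criterion, which chance gives in about 1 group in 20. They were non-neuron 2 at chr11:113668763-113670640 (1.36 CPM), non-neuron 3 at chr4:148335412-148336279 (609.9 CPM) and neuron 1 at chr14:26470777-26471504 (602 CPM). None of the 14 groups of library measures held one.

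The cell type difference changed between P0 and P21 at 34 named intervals by the interaction test in edgeR (adjusted p under 0.05 over all intervals), up at 30 and down at 4. Each value here is the log2 difference at P21 minus that at P0. Of the largest higher calls, it was 0.88 at chr7:26031602-26032252, 1.497 at chr3:104796839-104797566, 1.00 at chrX:96197533-96198718, -0.46 at chr3:105207197-105208173, 1.73 at chr3:105697325-105698397, 2.29 at chr10:41970966-41971307 and 1.21 at chr9:44303234-44304150.

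Of the largest lower calls, it was 1.69 at chr4:139824190-139825253, 1.02 at chr4:139825253-139825939, 0.98 at chr17:85658518-85659428, 2.35 at chr14:22418982-22419728, 0.94 at chr5:132193512-132193807, 0.47 at chr1:24254791-24255722, 1.89 at chr15:31332059-31333483, 0.44 at chr4:137498492-137499016, 2.06 at chr8:97075370-97076482 and -2.37 at chr11:80296307-80297734.

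Among members of the 8 clusters it was 1.88 at chr8:123073824-123074613, 1.85 at chr11:117093013-117093675, 0.55 at chr2:168379070-168379671, 0.66 at chr2:168379671-168382070, 1.28 at chr2:168382070-168383583, 1.27 at chr7:26030206-26031602, 2.95 at chr7:26032360-26033920 and 1.51 at chr11:97302946-97304149. It was -0.50 at chr11:113667215-113667703, -0.68 at chr11:113667703-113667820, 1.42 at chr5:123093261-123094481, 1.37 at chr5:123096129-123097541, 1.46 at chr5:123097541-123099404, 0.60 at chr17:27175758-27176878, 1.79 at chr17:27185591-27186196 and 0.76 at chr17:27186196-27188548. Among the most covered calls it was 0.42 at chr4:148335412-148336279. Under upper-quartile scaling the test was missed at chr1:24254791-24255722, chr4:137498492-137499016, chr17:27175758-27176878 and chr4:148335412-148336279.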

How the results depend on the processing

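Counts of calls were 2760 in all, 1836 higher and 924 lower in neurons, and leaving out 1 library gave 2194 to 2627, 1424 to 1773 and 770 to 965. Lower calls moved most: 1743 under upper-quartile scaling, 1500 with the length trend removed, 600 in replicates 4 and 5 alone, and 530 at an adjusted p under 0.01. Without a filter 390 were lower by 2-fold or more (246 with it). Clusters of calls numbered 317 with 706 calls, 204 with 448 in replicates 1 to 3 and 209 with 459 in replicates 4 and 5. The share of touching neighbours of calls that were called in the same direction was 39.7%, 33.9% without a filter, 43.7% with all 20 libraries in 1 fit and 36.2% in replicates 4 and 5. Shares by level and length under the other scalings were added after the data were seen. Samples of one number deviated together at r = 0.0747 to 0.276, with replicate 1 lowest, and not every sample correlated best with its own number, so the numbers were not taken as pairs. With a replicate block there were 3874 calls, 2394 higher and 1480 lower, and all 2760 calls were kept. DESeq2 gave 2772 and limma-voom 2744 calls. Of the 63 named intervals 15 lost their call somewhere in 24 other fits, and 0 reversed. Few reads limit what can be seen at weak intervals: 27404 listed intervals were not tested. A run of intervals shares sites, fractions may be impure, and the scale is relative.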
